A study of Mus musculus with 6 samples.

Results

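Collagen genes were taken from the gene expression table as the rows whose gene name is, in full, Col, digits, a, digits, which gave 44 genes among the 34745 rows. The row Col4a3bp only starts with that pattern and was not counted. The libraries came from MLE-12 cells, a mouse lung epithelial cell line, transfected with a plasmid. The NR4A1 overexpression group received the pCMV-SPORT6-NR4A1 plasmid, the control group received the empty pCMV-SPORT6 vector, and each group holds 3 libraries, called NR4A1 replicates 1 to 3 and vector replicates 1 to 3. NR4A1 is a nuclear receptor, and the plasmid drives it from a viral promoter in whichever cells took it up. All 6 libraries share the cell line and the transfection, and the labels give no other treatment. The comparison asks what raised NR4A1 does to the transcripts of these epithelial cells, here in the collagen genes.

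Collagens are trimers of chains in which glycine recurs at a fixed spacing, which lets the chains wind into a triple helix. Fibrillar collagens (types I, II, III, V, XI, XXIV and XXVII) assemble into the fibrils that give tissue its tensile strength, and in lung they are made mainly by mesenchymal cells and accumulate in fibrosis. Type IV collagen forms the network of basement membranes beneath epithelium and endothelium, and types XV and XVIII are proteoglycans of the basement membrane zone. The remaining types form beaded filaments (VI), anchoring fibrils (VII), hexagonal networks (VIII), fibril-associated molecules (IX, XII, XIV, XVI, XX) or membrane-bound chains. By these roles 11 of the 44 genes were classed as fibrillar, 8 as basement membrane and 25 as other.

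The repeat is written into the exons of the fibrillar genes, and 1 such exon is shown for the 4 fibrillar genes that lay 10-fold above the other libraries in NR4A1 replicate 2 and for Col11a1, which had the smallest p between the groups. Every exon printed has 54 bases, and the capitals mark the 6 glycine codons that recur as 1 codon in 3. Those of Col1a1, Col5a1 and Col11a1 hold 1 further glycine codon outside that spacing, left in lower case. Coordinates and strands are those of GRCm38 with the GENCODE M21 annotation, exons are numbered along the gene's transcript, each is its earliest exon of this kind, and the sequence reads 5′ to 3′ on the coding strand.
Col1a1 exon 8, chr11:94939904-94939957, plus strand: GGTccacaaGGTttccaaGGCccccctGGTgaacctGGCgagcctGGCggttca
Col1a2 exon 8, chr6:4515481-4515534, plus strand: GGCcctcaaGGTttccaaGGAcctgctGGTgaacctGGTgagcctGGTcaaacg
Col5a1 exon 15, chr2:27965251-27965304, plus strand: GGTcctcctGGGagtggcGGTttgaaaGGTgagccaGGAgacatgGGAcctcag
Col5a2 exon 6, chr1:45434892-45434945, minus strand: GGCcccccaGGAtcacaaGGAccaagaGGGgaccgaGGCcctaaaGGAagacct
Col11a1 exon 15, chr3:114108281-114108334, plus strand: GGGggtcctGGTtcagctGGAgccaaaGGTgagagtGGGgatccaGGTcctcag
The Col1a1 and Col1a2 exons, both numbered 8, share 42 of 54 bases, and those of Col5a1 and Col11a1 share 32. The other pairs share 24 to 29. Among the inner coding exons of the 11 fibrillar genes, 83.9% of 627 had a length that is a multiple of 9 bases and 48.6% had exactly 54 bases. In the 8 basement membrane genes these shares were 45.2% and 4.43% of 361 exons, in the 25 other collagen genes 57.7% and 16.0% of 924, and over all 21901 genes with a coding transcript 14.3% and 0.726% of 157200.

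The libraries held 15019038 to 17574340 counts, so that 3 counts, the limit that a count of 0 allows, correspond to 0.170 to 0.203 CPM, the usual count scaled to library size. This limit covers counting error only. Nr4a1 was counted 50660 to 68555 times in the NR4A1 group and 428 to 510 times in the control group, and the counts do not separate the transfected cDNA from the gene of the cells. NR4A1 replicate 2 stood apart from the other libraries. In it 279 genes had at least 1 CPM and lay 10-fold or more above every other library, against 5 in vector replicate 1, 1 in vector replicate 2 and 0 in the other 3. The comparisons between the groups are therefore also given without it. Of the lung epithelial markers, Krt8, Nkx2-1, Sftpc and Cdh1 were counted at least 439 times in every library, but Cldn4 was counted 0 or 1 times and Epcam 2 to 22 times. The 8 epithelial markers summed to 353 to 394 CPM in the NR4A1 group and 396 to 431 CPM in the control group. The 4 leukocyte markers summed to 1.79 to 5.06 and 2.10 to 3.40 CPM, with Ptprc at 0 or 1 counts. The labels do not say whether the replicates were separate cultures, so the p-values measure the spread between these libraries, which may be technical.

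Basement membrane genes made up most of the collagen transcripts in every library. Levels of different genes are compared here only per length, as FPKM, fragments scaled to gene length and library size. The 8 basement membrane genes held 83.5% to 85.0% of the summed collagen FPKM in the control group, and 87.4%, 67.8% and 86.9% in NR4A1 replicates 1 to 3. The 11 fibrillar genes held 1.94% to 3.09% in the control group and 2.56%, 20.3% and 2.35% in the NR4A1 replicates. NR4A1 replicate 2 was thus the library in which the fibrillar share was high and the basement membrane share low, while the shares of the other 5 libraries lay close together. In FPKM itself the basement membrane sum was not low there, at 310.6 against 200.8 to 248.7 in the other 5.

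**Figure D1:**
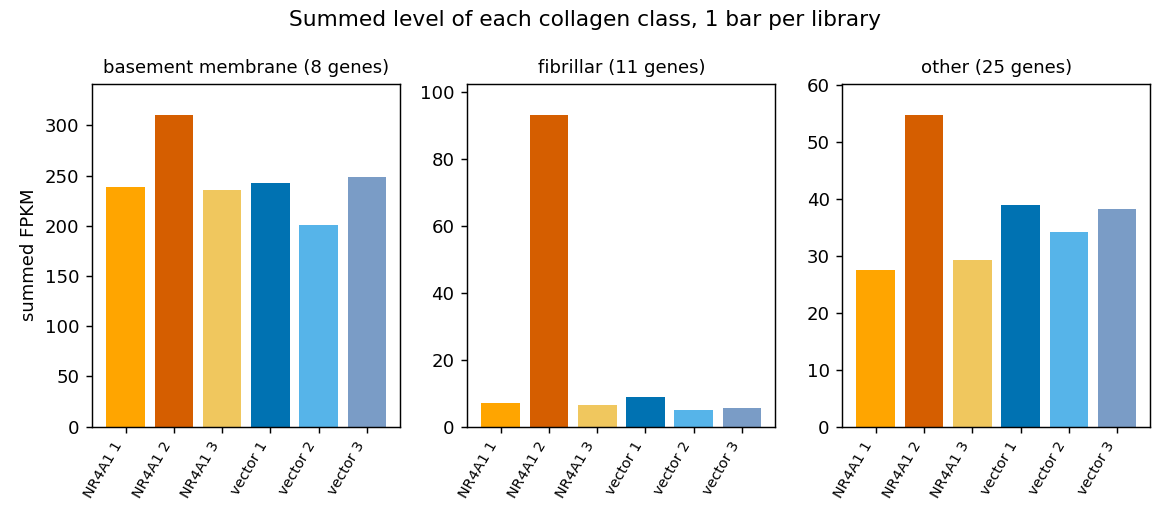
Summed FPKM of the 8 basement membrane, 11 fibrillar and 25 other collagen genes, 1 bar per library and a separate linear axis for each class. The fibrillar sum is 93.1 in NR4A1 replicate 2 and 5.08 to 8.99 in the other 5 libraries.

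The highest collagen gene was Col4a1, the alpha 1 chain of type IV collagen, with 75.5 ± 6.62 FPKM in the control group (mean ± SD, n = 3). Col4a5 (46.8 ± 5.58 FPKM), Col4a2 (45.8 ± 3.76 FPKM) and Col4a4 (40.6 ± 6.74 FPKM) followed, and the ranges of these neighbours overlapped. Col4a3 was at 19.3 ± 3.59 FPKM, below every Col4a4 value, and its range overlapped that of Col6a1, a chain of type VI collagen, at 15.3 ± 1.46 FPKM. Col16a1, a fibril-associated collagen, was at 8.58 ± 0.527 FPKM and Col6a2 at 5.69 ± 0.290 FPKM, each apart from its neighbours in the order. From Col11a2, the highest fibrillar gene at 2.92 ± 0.361 FPKM, downwards each range overlapped the next. Col1a1 (1.48 ± 0.914 FPKM), the second fibrillar gene in this order, encodes the main chain of type I collagen.

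A total of 28 collagen genes reached 1 CPM in any library, namely 9 fibrillar, 8 basement membrane and 11 other genes. The highest of the 6 values belonged to NR4A1 replicate 2 in 17 of these 28, and the same share over all genes was not counted. At the other end, 5 genes had 0 counts in all 6 libraries: Col26a1, Col6a4, Col6a5, Col10a1 and Col13a1. Another 8 were counted but never above 3 times in a library. The limit of 3 counts applies to each of these 13 genes, which include the hypertrophic cartilage collagen Col10a1 and the hemidesmosome collagen Col17a1.

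**Figure D2:**
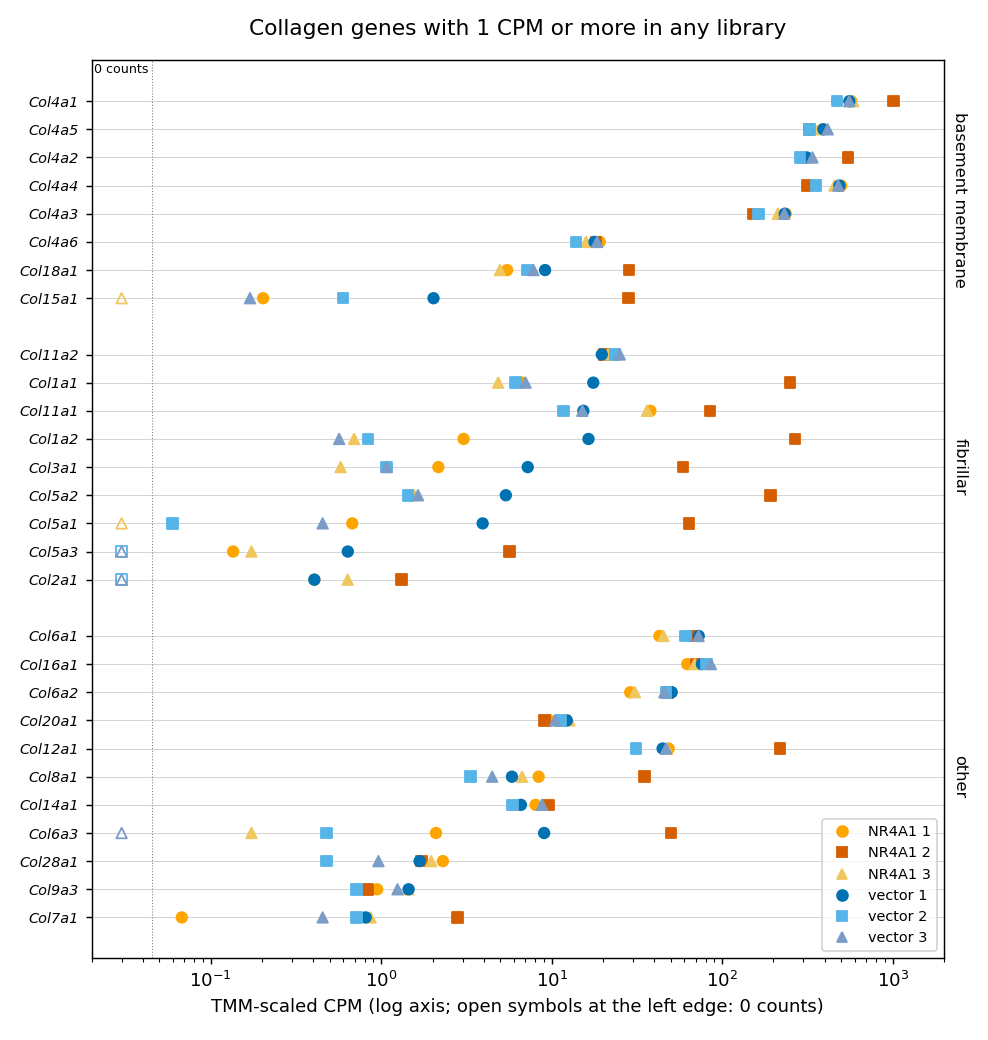
Level of the 28 collagen genes with at least 1 CPM in any library, as CPM scaled by TMM factors on a log axis, 1 symbol per library, ordered within each class by mean control FPKM, with open symbols at the left edge for 0 counts. The squares of NR4A1 replicate 2 lie furthest to the right for type I, III and V chains, while those of Col4a3 and Col4a4 lie furthest to the left of their rows.

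No collagen gene passed the test between the groups. Of the 44 genes, 27 passed the filter on low counts and were tested, 17 with a positive and 10 with a negative log2 fold change (NR4A1 minus vector). A call needed a Benjamini-Hochberg adjusted p under 0.05 from edgeR's quasi-likelihood test and a change of at least 2-fold. Such calls were made for 0 of the 27 collagen genes and for 22 of all 12941 genes tested (0.170%). Single genes are given with their log2 fold change (log2FC, NR4A1 minus vector), its standard error (SE) and the adjusted p of that test. At an unadjusted p under 0.05 and any fold, 4 collagen genes passed (Col11a1, Col5a2, Col8a1 and Col16a1) against 6.46% of all genes. DESeq2 called 1 of 23 with an adjusted p, Col11a1, against 0.446% of all genes. It gave no p for Col1a1, Col1a2, Col3a1, Col5a1, Col5a2, Col5a3, Col6a3 and Col15a1, so their lack of a DESeq2 call says nothing. Without NR4A1 replicate 2 edgeR also called 1, again Col11a1, against 0.214% of all genes.

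The direction of many collagen genes rested on NR4A1 replicate 2. When it was left out, 11 of the 27 log2FC values turned from positive to negative and 3 from negative to positive. The median over the 7 tested fibrillar genes went from 3.09 with all libraries to -0.88 without it, that of the 8 basement membrane genes from 0.20 to 0.02, and that of the 12 other genes from 0.04 to -0.11. The median over all genes tested was 0.01 with it and -0.00 without it. A change of at least 2-fold in either direction was fitted for 10 of the 27 genes with all libraries and for 7 without that replicate. Vector replicate 1 stayed in the fit without NR4A1 replicate 2, and no fit left out both. It was at least 3-fold above the other 4 libraries in Col1a2, Col3a1, Col5a1, Col5a2, Col6a3 and Col15a1. In these 6 genes the negative log2FC was thus fitted against a control group with 1 high library.

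**Figure D3:**
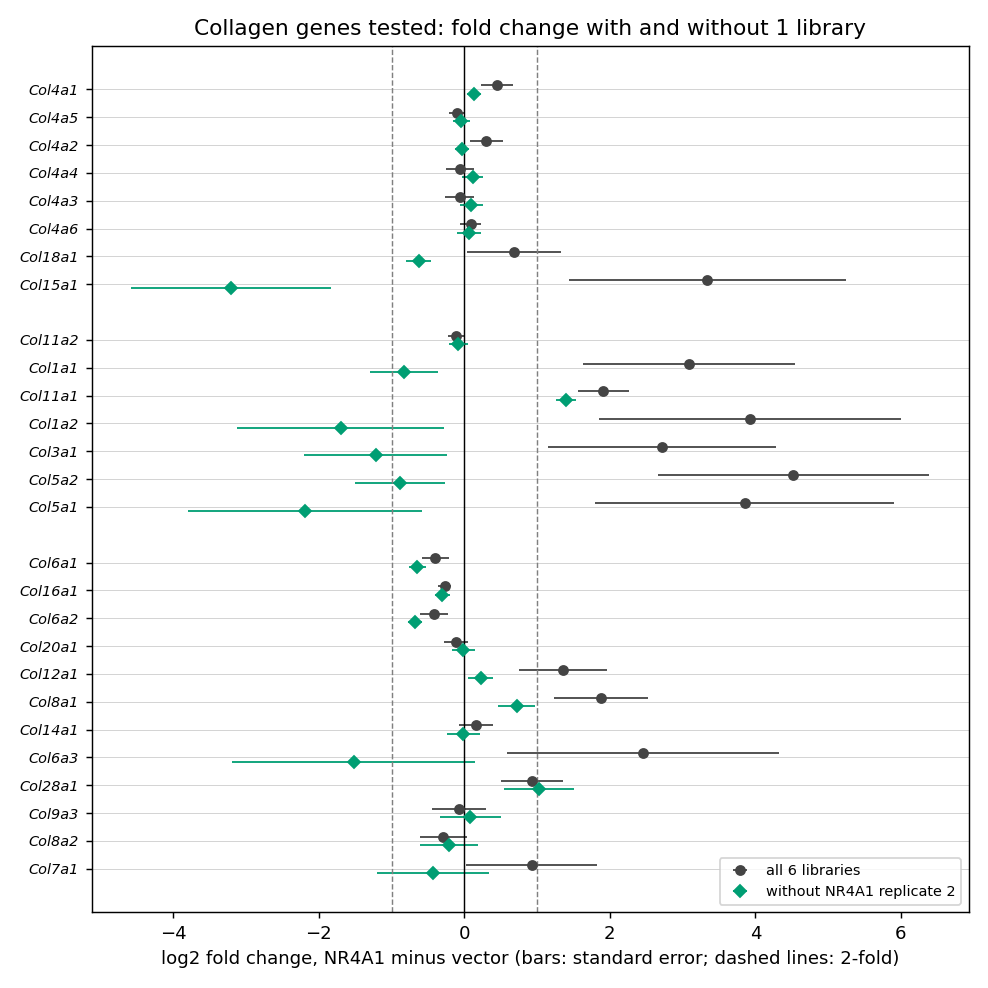
Log2FC (NR4A1 minus vector) of the 27 collagen genes tested, with its SE, from the fit on all 6 libraries (circles) and the fit without NR4A1 replicate 2 (diamonds). Col1a1, Col1a2, Col3a1, Col5a1, Col5a2, Col6a3 and Col15a1 lie on opposite sides of 0 in the 2 fits, while Col11a1 lies at 1.91 and 1.40.

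Type I and type V collagen chains and Col15a1 were the collagen genes furthest apart in NR4A1 replicate 2. By the rule of at least 1 CPM and at least 10-fold above every other library, 5 of the 28 collagen genes qualified there, Col1a1, Col1a2, Col5a1, Col5a2 and Col15a1, against 2.08% of the 13390 genes with 1 CPM in any library. A single library allows no test, so these values are a description. In bulk RNA a different number of cells of a type and a different amount of RNA per cell cannot be told apart.

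Col1a2 (chr6:4504814-4541544, plus strand), the alpha 2 chain of type I collagen, was counted 45, 4504 and 12 times in NR4A1 replicates 1 to 3 and 284, 14 and 10 times in vector replicates 1 to 3. NR4A1 replicate 2 was 16.3-fold above the next library, and that next library was vector replicate 1. The log2FC between the groups was 3.93 (SE 2.08, edgeR adjusted p = 0.829) and -1.70 without NR4A1 replicate 2 (SE 1.42, adjusted p = 0.709). Col1a1 (chr11:94936224-94953042, plus strand), its partner chain, was counted 99, 4189 and 84 times against 303, 103 and 124 times. The groups overlapped, since NR4A1 replicates 1 and 3 were below vector replicate 1. Its log2FC was 3.09 (SE 1.46, adjusted p = 0.801) and -0.83 without NR4A1 replicate 2 (SE 0.468, adjusted p = 0.647).

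Col5a2 (chr1:45374321-45503282, minus strand), a chain of the type V collagen that forms the core of type I fibrils, was counted 22, 3214 and 27 times against 93, 24 and 29 times. This was the collagen gene with the widest gap, 35.6-fold between NR4A1 replicate 2 and the next library. Its log2FC of 4.52 (SE 1.86) had an unadjusted p of 0.0448 and an edgeR adjusted p of 0.753. Without that replicate it became -0.88 (SE 0.61, adjusted p = 0.677). Col5a1 (chr2:27886425-28039514, plus strand), its partner, was counted 10, 1075 and 0 times against 68, 1 and 8 times. Its log2FC was 3.86 (SE 2.05, adjusted p = 0.829) and -2.19 without NR4A1 replicate 2 (SE 1.61, adjusted p = 0.684). Both chains had at most 29 counts in each of the other 4 libraries.

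Just outside the 10-fold rule lay Col5a3 (8.89-fold above the next library) and Col3a1 (8.16-fold), named here after their values were seen, and just inside lay Col15a1 (13.9-fold) and Col1a1 (14.2-fold). Col3a1, the single chain of type III collagen, was counted 32, 991 and 10 times against 125, 18 and 19 times. A limit of 3-fold took in 12 collagen genes, 6 fibrillar, 2 basement membrane and 4 other. The share over all genes at 3-fold was not counted, so these 12 cannot be read as particular to collagen. In 9 of those 12 the second highest library was vector replicate 1, in Col1a1, Col1a2, Col3a1, Col5a1, Col5a2, Col5a3, Col6a3, Col15a1 and Col18a1, and in the remaining 3, Col7a1, Col8a1 and Col12a1, it was another NR4A1 library.

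**Figure D4:**
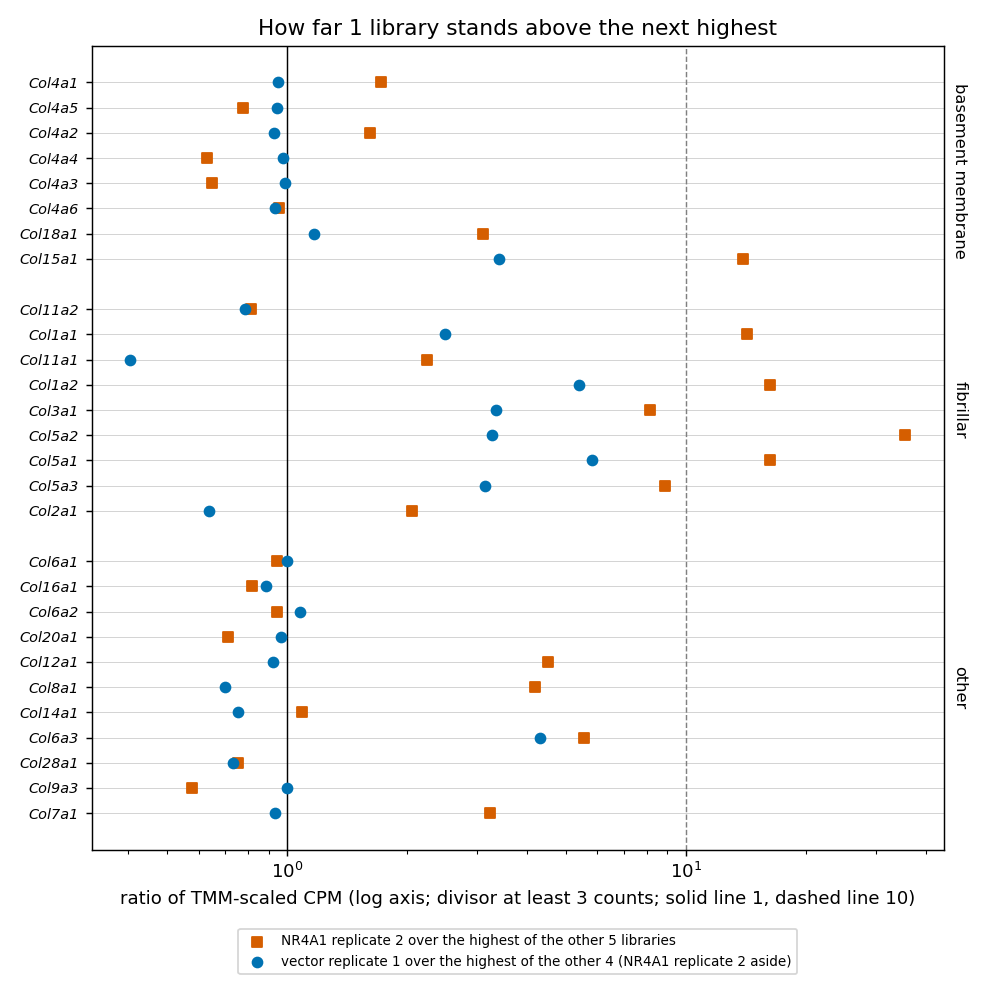
For the 28 collagen genes with at least 1 CPM in any library, the CPM of NR4A1 replicate 2 divided by the highest of the other 5 libraries (squares), and that of vector replicate 1 divided by the highest of the other 4 with NR4A1 replicate 2 set aside (circles), on a log axis. Squares reach 35.6 for Col5a2, and the circles of Col1a2 and Col5a1 reach 5.40 and 5.82.

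Vector replicate 1 was the second highest library for all 5 of the genes 10-fold apart. With NR4A1 replicate 2 set aside, 6 of the 25 collagen genes that reached 1 CPM in the remaining libraries lay at least 3-fold above the other 4 in vector replicate 1, against 0.664% of all 12804 such genes. They were Col5a1 (5.82-fold), Col1a2 (5.40-fold), Col6a3 (4.31-fold), Col15a1 (3.40-fold), Col3a1 (3.34-fold) and Col5a2 (3.28-fold). This limit was chosen after the values had been seen, and it is the control library that is high here.

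Fibroblast, smooth muscle and endothelial markers were high in NR4A1 replicate 2, and some fibroblast markers were high in vector replicate 1 as well. Of the 10 fibroblast markers, 7 were highest in NR4A1 replicate 2, 3 of them 10-fold or more above every other library (Thy1, Fbn1 and Postn), and 5 were at least 3-fold above the remaining 4 in vector replicate 1. The summed level of the list was 967 to 1206 CPM in the NR4A1 group and 942 to 1066 CPM in the control group, most of it from Dcn, which was counted 14138 to 17269 times and was not highest in NR4A1 replicate 2. All 7 smooth muscle markers were highest in that replicate, with a sum of 321 CPM against 1.56 to 2.72 CPM in the other 5 libraries, and Acta2 was counted 3841 times. Of the 8 endothelial markers 7 were highest there, with a sum of 127 CPM against 14.1 to 16.6 CPM, and Cdh5, Kdr and Tie1 were at 0 in every other library. In vector replicate 1, 0 of the smooth muscle and 0 of the endothelial markers were 3-fold above the remaining 4. Of the 8 lung epithelial markers, 1 was 3-fold above the remaining 4 there, and 3 were highest in NR4A1 replicate 2. The share of all genes highest in NR4A1 replicate 2 was not counted. The part of fibroblasts, smooth muscle cells or endothelial cells in the collagen values was not tested.

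Col11a1 was the collagen gene with the smallest p between the groups. It encodes the alpha 1 chain of type XI collagen, a minor fibrillar collagen best known from cartilage that helps set fibril diameter, and lies at chr3:114030540-114220718 on the plus strand. The counts were 561, 1425 and 627 in the NR4A1 group and 265, 197 and 267 in the control group. Every NR4A1 library was above every vector library, and the group means were 53.0 ± 27.6 and 14.1 ± 2.01 CPM (SD, n = 3 each). The log2FC was 1.91 (SE 0.345) with an unadjusted p of 0.000793 and an adjusted p of 0.139 in edgeR, so it was not called. Without NR4A1 replicate 2 the log2FC was 1.40 (SE 0.134, adjusted p = 0.0173), a call. DESeq2 gave 1.91 with all libraries (adjusted p = 2.74e-06), also a call, and leaving out any other library gave 1.80 to 2.12 with edgeR and no call. Col11a1 did not share the pattern of vector replicate 1, which was at 15.3 CPM beside 11.8 and 15.1 CPM in the other vector libraries. The chondrocyte markers, which name the cells best known for type XI collagen, summed to 5.72 to 11.0 CPM in the NR4A1 group and 5.50 to 5.73 CPM in the control group, with Acan at 0 in 5 of 6 libraries and no row named Cnmd. Of that list Sox9, a transcription factor of cartilage, was higher in every NR4A1 library, at 3.45, 7.39 and 3.06 CPM against 3.01, 1.91 and 2.32 CPM. Its log2FC was 0.94 (unadjusted p = 0.0446, adjusted p = 0.753) and 0.43 without NR4A1 replicate 2. The median log2FC over the 3 tested chondrocyte markers, Sox9 included, was 0.05. The part of such cells in Col11a1 was not tested. Col11a2, the partner chain, was counted 318, 342 and 371 times against 340, 393 and 443 times, overlapping groups with a log2FC of -0.11 (SE 0.109, adjusted p = 0.921).

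The 250 bases before the start of Col11a1 are shown because it is the collagen gene that came nearest to a call with all libraries. They are from the RefSeq promoter table of build GRCm38.p6, 5′ to 3′ on the plus strand, and the capitals mark a CCAAT box read on the opposite strand, which starts 79 bases before the gene.
Col11a1 upstream, chr3:114030290-114030539: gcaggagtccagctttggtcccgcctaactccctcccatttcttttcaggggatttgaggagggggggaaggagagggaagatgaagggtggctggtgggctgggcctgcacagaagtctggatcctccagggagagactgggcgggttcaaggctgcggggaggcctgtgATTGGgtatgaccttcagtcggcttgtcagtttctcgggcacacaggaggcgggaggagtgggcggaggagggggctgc
Promoter windows of 300 bases (250 before and 50 after a start) were searched on both strands for 3 motifs, none of which contains another. The monomer element bound by NR4A receptors, AAAGGTCA, was in 1.51% of all 32851 windows and in 2 of the 38 windows of the 35 collagen genes matched (5.26%), those of Col23a1 and Col24a1, neither of which reached 1 CPM. The CCAAT box (CCAAT) was in 37.4% of all windows and 34.2% of the collagen windows, and the TATA box (TATAAA) in 13.6% and 13.2%. No AAAGGTCA was in the window of Col11a1, which says only that these letters are not there. The search took exact letters, and near matches were not counted in any window. The printed stretch holds tgaccttc, which on the opposite strand differs from AAAGGTCA in the first base only. The sites that the paper predicted for NR4A1 before the gene Ereg do not hold AAAGGTCA either. Whether NR4A1 binds before Col11a1 was not tested.

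Among basement membrane genes, Col4a1 and Col4a2, the chains of the common type IV collagen, were highest in NR4A1 replicate 2. Col4a1 (chr8:11198423-11312826, minus strand) was counted 8474, 16975 and 10163 times against 9630, 7928 and 9825 times. In CPM every NR4A1 library was above every vector library, by a small margin except in replicate 2, and the group means were 724 ± 249 and 529 ± 48.4 CPM. The log2FC was 0.45 (SE 0.223, edgeR adjusted p = 0.816) and 0.13 without that replicate. Col4a2, counted 4343, 9174 and 5491 times against 5412, 4783 and 5979 times, overlapped between the groups. Its log2FC was 0.30 and became -0.03 without NR4A1 replicate 2. Of the 27 tested genes, 5 had no NR4A1 library at or below a vector library in CPM, against 6.69% of all genes. These were Col4a1, Col11a1, Col12a1, Col8a1 and Col28a1. In CPM 1 gene, Col16a1, was lower in every NR4A1 library, against 6.22% of all genes.

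Col4a3 and Col4a4, chains of the type IV network of the glomerular and alveolar basement membrane, were lowest in NR4A1 replicate 2. Col4a4 was counted 7385, 5276 and 7893 times against 8421, 5940 and 8472 times, and Col4a3 was counted 3490, 2565 and 3671 times against 4025, 2743 and 4088 times. In both genes vector replicate 2 was the next lowest, so the groups overlapped, and their log2FC values were -0.06 each. Col4a5 (chrX:141475385-141689234, plus strand), the third chain of that network, was counted 5724, 5428 and 6041 times against 6783, 5471 and 7346 times. Its log2FC was -0.10 (SE 0.114, adjusted p = 0.934). Col4a6 stayed between 13.8 and 19.1 CPM in all 6 libraries.

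Col15a1 and Col18a1, the proteoglycan collagens, were highest in NR4A1 replicate 2. Col15a1 (chr4:47208161-47313167, plus strand) was counted 3, 474 and 0 times against 35, 10 and 3 times. Its log2FC was 3.34 (SE 1.90, adjusted p = 0.834) and became -3.20 without NR4A1 replicate 2 (SE 1.37, adjusted p = 0.606). Col18a1, the precursor of endostatin, was counted 81, 476 and 86 times against 158, 121 and 138 times. Its log2FC went from 0.68 to -0.63 (adjusted p = 0.413) when NR4A1 replicate 2 was left out, and NR4A1 replicates 1 and 3 were both below every vector library.

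Among the other collagens, type VI chains were split between the libraries. Col6a1 (chr10:76708792-76726168, minus strand) was counted 634, 1152 and 783 times against 1259, 1022 and 1284 times. The group means were 52.2 ± 14.2 and 68.9 ± 6.82 CPM. NR4A1 replicates 1 and 3 were below every vector library and replicate 2 lay among them. The log2FC was -0.40 (SE 0.190, adjusted p = 0.806) and -0.64 without replicate 2 (adjusted p = 0.114). Col6a2, named after its values were seen, was arranged alike, with 427, 801 and 533 counts against 874, 786 and 808, and its log2FC went from -0.42 to -0.68 (adjusted p = 0.0546). Col6a3, the third chain, was counted 31, 842 and 3 times against 156, 8 and 0 times and followed the type I genes.

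Col16a1 (chr4:130047840-130099283, plus strand) had no NR4A1 library at or above a vector library. It was counted 923, 1179 and 1194 times against 1314, 1356 and 1516 times. The group means were 67.2 ± 4.21 and 80.9 ± 4.91 CPM. The difference was under 2-fold, with a log2FC of -0.27 (SE 0.0895, unadjusted p = 0.0195, edgeR adjusted p = 0.646), and it was -0.30 without NR4A1 replicate 2.

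Col12a1 and Col8a1 were also above the control range in all 3 NR4A1 libraries, by at least 2-fold in the fit on all libraries. Col12a1 (chr9:79598991-79718831, minus strand), which sits on the surface of type I fibrils, was counted 718, 3672 and 822 times against 773, 524 and 828 times. NR4A1 replicates 1 and 3, at 48.5 and 47.5 CPM, were close to the highest vector library at 46.9 CPM. The log2FC, 1.36 (SE 0.599, adjusted p = 0.784), became 0.23 without replicate 2. Col8a1 (chr16:57624258-57754737, minus strand), a short-chain collagen of the matrix beneath endothelium, was counted 124, 589 and 116 times against 101, 56 and 79 times. Its log2FC of 1.88 (SE 0.643, adjusted p = 0.665) became 0.72 (adjusted p = 0.557) without that replicate. Col2a1, the main cartilage collagen, was counted 6, 22 and 11 times against 7, 0 and 0 times and was too low to be tested, and its values in NR4A1 replicate 1 and vector replicate 1 were nearly equal at 0.406 and 0.405 CPM. Col28a1, which in CPM was also higher in every NR4A1 library, had 34, 29 and 34 counts against 29, 8 and 17 counts. NR4A1 replicate 2 and vector replicate 1 had the same count and lay at 1.73 and 1.68 CPM. The log2FC of Col28a1 was 0.93 (adjusted p = 0.795). It was 1.02 without NR4A1 replicate 2 and 0.59 to 1.46 over all fits that left out 1 library.

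Chains that assemble together kept a nearly fixed ratio in some pairs and not in others. The FPKM ratio of Col4a4 to Col4a3 lay between 2.06 and 2.17 in the 6 libraries, that of Col4a1 to Col4a2 between 1.60 and 1.90, and that of Col6a1 to Col6a2 between 2.42 and 2.96. Col1a1 to Col1a2 was 5.14, 2.17 and 16.4 in NR4A1 replicates 1 to 3 and 2.49, 17.2 and 29.0 in vector replicates 1 to 3. It was thus lowest in NR4A1 replicate 2 and vector replicate 1, the libraries in which both genes were highest. Col6a1 to Col6a3 was 4.13 in NR4A1 replicate 2, 24.4 in vector replicate 1 and between 61.7 and 787.5 in the other 3 libraries with a Col6a3 count, and with few counts these ratios are uncertain. Col11a2 to Col11a1 was 1.02, 0.434 and 1.07 in the NR4A1 group and 2.32, 3.60 and 3.00 in the control group, groups that do not overlap.

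**Figure D5:**
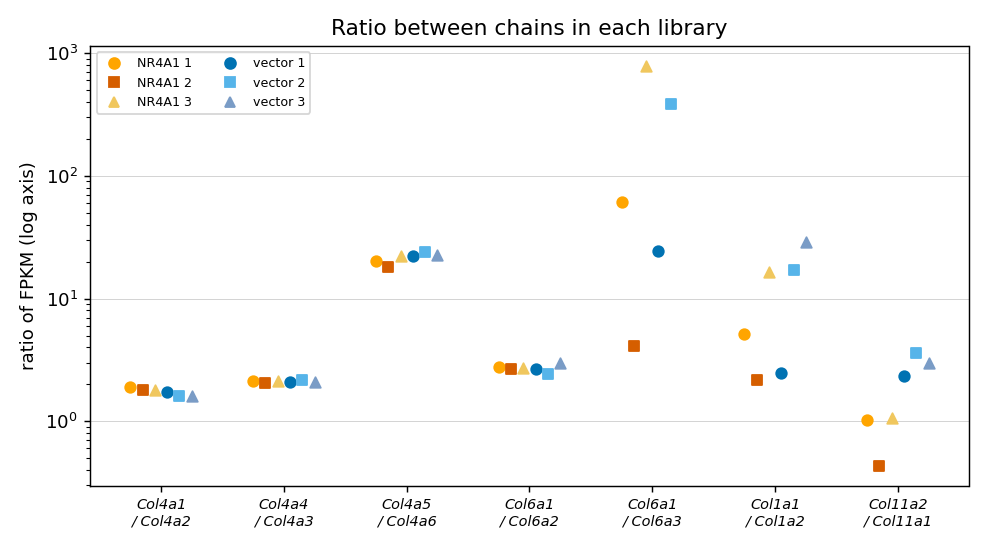
Ratio of FPKM between chains of the same collagen type, 1 symbol per library, on a log axis, without a symbol where the second chain had 0 counts. Among the pairs plotted, the 3 of type IV and Col6a1 to Col6a2 vary by at most 1.33-fold over the libraries, Col1a1 to Col1a2 by 13.3-fold.

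The type IV pairs lie head to head in the genome. Col4a1 and Col4a2 share 22 bases at their starts, and although the library kit kept strand, whether the counting used it is not stated, so reads there could have been counted for either gene. Col4a4 and Col4a3 are separated by 71 bases and Col4a6 and Col4a5 by 1308. The stretch between Col4a4 and Col4a3 is shown because their ratio varied least, by 1.05-fold. It is from the RefSeq promoter table of build GRCm38.p6, on the minus strand, 5′ to 3′ into Col4a4, has a GC content of 69.0% and holds 0 of the 3 motifs searched, hence no capitals.
Between Col4a4 and Col4a3, chr1:82586850-82586920: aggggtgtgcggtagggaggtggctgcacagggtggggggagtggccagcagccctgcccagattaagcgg
Col3a1 and Col5a2 also neighbour each other, with their ends 24614 bases apart on chromosome 1, and both were highest in NR4A1 replicate 2.

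Genes that build, cut, cross-link or bind collagen were described from 6 lists of 65 genes. Of these, 53 were tested. edgeR called 0 against 0.170% of all genes, and DESeq2 called 0 of the 50 for which it gave a p. The DESeq2 share over all genes was 0.446%, counted only over genes with an adjusted p, so the 2 sets are not alike. An unadjusted p under 0.05 was found for 9 of the 53 (17.0%) against 6.46% of all genes. Without NR4A1 replicate 2 it was found for 6, and the share over all genes in that fit was not counted. Their median log2FC was 0.01, beside 0.01 for all genes tested. One list held the 20 genes of chain modification and folding. Their summed level was 3228 to 3698 CPM in the NR4A1 group and 3528 to 3742 CPM in the control group, their median log2FC over 19 tested genes was -0.06, and none was 10-fold above the other libraries in NR4A1 replicate 2. The nearest was Creb3l1, a transcription factor of collagen genes named after its values were seen, with 14, 165 and 19 counts against 22, 8 and 9. NR4A1 replicate 2 was 7.72-fold above the next library there, and the log2FC was 2.39 (unadjusted p = 0.0460, adjusted p = 0.760) and 0.44 without it. Ppib, a prolyl isomerase of the endoplasmic reticulum and the highest of that list, was at 316 ± 33.4 FPKM in the control group.

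In the remaining lists 5 genes lay 10-fold or more above every other library in NR4A1 replicate 2: Lox, Tll1, Adamts14, Bgn and Nid1. Those were 5 of the 65 genes on all lists, against 2.08% of the 13390 genes with 1 CPM in any library. The 65 were not limited to genes with 1 CPM. Lox, which cross-links collagen and elastin, was counted 24, 5790 and 0 times against 181, 8 and 6 times. Its relative Loxl2, the highest of the 5 cross-linking genes at 32.0 ± 2.28 FPKM in the control group, was counted 2563 to 3199 times in the NR4A1 group and 2970 to 3551 times in the control group. Tll1 and Adamts14, which cleave procollagen ends, were counted 489 and 129 times in NR4A1 replicate 2 and at most 7 and 12 times elsewhere, while Bmp1, the highest of that list at 120 ± 3.56 FPKM in the control group, was counted 5466 to 7070 times in the NR4A1 group and 7505 to 8113 times in the control group. Bgn, a small proteoglycan that binds type I collagen, was counted 86, 5790 and 6 times against 472, 15 and 15 times. Nid1, which links laminin to type IV collagen, was counted 40, 7267 and 11 times against 269, 7 and 7 times.

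In Lox, Bgn and Nid1 vector replicate 1 was the second highest library, as in the type I genes. The highest gene of the basement membrane partners was Sparc at 174 ± 7.68 FPKM in the control group, that of the collagen receptors Itgb1 at 265.5 ± 3.96 FPKM, and that of the small proteoglycans Dcn at 466 ± 32.1 FPKM. The medians were 0.19 for propeptide cleavage (7 tested), 0.43 for cross-linking (4), 0.19 for receptors (6), -0.11 for small proteoglycans (6) and 0.04 for basement membrane partners (11).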

How the data were processed

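RNA was sequenced from MLE-12 cells, 3 libraries with the NR4A1 plasmid and 3 with the empty vector. The authors deposited 1 table of counts per gene with FPKM beside them. HISAT2 (version 2.0.4) and the GRCm38.p4 build are named in the submitters' processing notes, and the counting program and annotation are not given in the sources used here. The library kit was strand-specific per the study's methods, but whether the counting used strand is not given either. The deposited FPKM were checked to follow from the counts. The members and lists were chosen with earlier results of these data known. Counts of 34745 genes were filtered (filterByExpr), scaled by TMM and tested with edgeR's quasi-likelihood test (edgeR 4.0.16, R 4.3.3), NR4A1 minus vector, with Benjamini-Hochberg adjustment over the 12941 genes tested. Collagen genes were named when called, when the groups did not overlap and differed at least 2-fold, when 10-fold above every other library at 1 CPM or more in any library, or when among the 2 highest of a class by control FPKM, and genes of the other lists when called, when 10-fold apart in NR4A1 replicate 2, or when highest of a list. In ratios of 1 library to the highest of the others, fewer than 3 counts were set to 3 in the divisor only. Alternatives were DESeq2 (1.42.0), other scalings and filters, limma (3.58.1) on log2(FPKM + 1), a replicate block, unadjusted p, no fold limit and leaving out each library. The limit of 3-fold for vector replicate 1 was chosen after seeing the data. Tested on simulated data of the same comparison (12804 genes, 200 changed 3-fold), the fit called 173 of the 200 and 8 others. The 200 were drawn from all these genes, and no simulated library was set apart as NR4A1 replicate 2 was. The share called was thus not measured for collagen genes with a large SE, such as Col1a2 (2.08). Gene coordinates are those of the table, and 42 of the 44 collagen genes have the same in GENCODE M21.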

Additional observations from a re-analysis of the deposited data

How the results depend on the processing

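The count of 0 called collagen genes was also 0 with median-ratio size factors, library totals, every gene kept, a minimum mean of 10 counts, limma on log2(FPKM + 1), no fold limit and the replicate block. It was 1 with DESeq2, 3 at an unadjusted p under 0.05 with a 2-fold change, and 0 to 1 when 1 library was left out. The count over all genes was 22, and became 65 with DESeq2, 8 with a minimum mean of 10 counts and 7 with limma on log2(FPKM + 1). It was 161 at an unadjusted p under 0.05 with a 2-fold change, and the adjusted calls numbered 3 to 28 when 1 library was left out. With the replicate block it was 5. Replicate numbers did not pair the libraries throughout, with correlations of -0.0111, -0.046 and 0.246 for the same number. Different numbers gave -0.398 to 0.291, the highest between NR4A1 replicate 2 and vector replicate 1, so the block is given here once. The 65 companion genes had 0 calls, and 3 at an unadjusted p with a 2-fold change. The 5 collagen genes apart in NR4A1 replicate 2 became 12 with a limit of 3-fold. Leaving out 1 library turned the sign of 15 log2 fold changes, which then ranged from -0.83 to 3.72 (Col1a1), -1.70 to 7.01 (Col1a2), -1.22 to 4.25 (Col3a1), -2.19 to 6.33 (Col5a1), -0.88 to 5.39 (Col5a2), -1.52 to 6.18 (Col6a3), -3.20 to 4.62 (Col15a1), -0.63 to 1.06 (Col18a1), -0.43 to 1.46 (Col7a1), -0.013 to 0.34 (Col14a1), -0.033 to 0.47 (Col4a2), -0.21 to 0.10 (Col4a3), -0.19 to 0.12 (Col4a4), -0.033 to 0.16 (Col4a6) and -0.36 to 0.13 (Col9a3). The cause was not tested. Counts under 3 are within the limit of a count of 0.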

Other observations

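Genes outside the naming rule also differed within the lists, and they were named after their values were seen. Fmod, a small proteoglycan that binds fibrils, was lower in every NR4A1 library, with 535, 627 and 769 counts against 1043, 930 and 1035 and a log2 fold change of -0.56 (edgeR adjusted p = 0.147), or -0.53 without NR4A1 replicate 2. Ddr2, a receptor kinase for fibrillar collagen, was split within both groups, at 2110, 2464 and 931 counts against 2266, 573 and 2192. Lamb1, a laminin chain of the basement membrane, was higher in every NR4A1 library, with 432, 1891 and 571 counts against 410, 301 and 361 and a log2 fold change of 1.49 (adjusted p = 0.665), or 0.59 without NR4A1 replicate 2 (adjusted p = 0.286).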
